A study of Mus musculus with 10 samples.

Results

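The precursors of the let-7 microRNAs (miRNAs) were measured by 9 probe sets of a mouse gene array, out of 35556 probe sets in all. A probe set was taken as a member where the array annotation listed exactly 1 gene symbol and that symbol starts with Mirlet7, with host genes left out. The 9 members, each a different gene, were Mirlet7a-1, Mirlet7a-2, Mirlet7c-1, Mirlet7d, Mirlet7e, Mirlet7f-1, Mirlet7f-2, Mirlet7g and Mirlet7i, and all 9 matched a RefSeq gene by identifier. Mirlet7b and Mirlet7c-2 were left out, since their 2 probe sets also list the long noncoding RNA Lncppara. RNA came from the bone marrow (BM) of mice reconstituted with fetal liver hematopoietic stem cells (FL-HSCs) and was hybridized to 10 arrays. On 5 arrays the FL-HSCs came from embryos of dams fed a vitamin D-deficient diet, called VD(−), and on 5 from embryos of dams fed a vitamin D-sufficient diet, called VD(+). Donors and recipients were C57BL6, and recipients in both groups were irradiated, vitamin D-sufficient mice of both sexes. The labels give an age of 8 weeks and speak of BM macrophages in 1 field and of BM in another, while the methods describe BM cells and give the age of 8 weeks as that at transplantation. The study's text and a figure legend give different times after transplantation for the marrow, so the time of sampling is not settled. The methods describe donor cells pooled from male and female embryos, and the sex behind each array is not in the labels. In each group 3 arrays carry single samples and 2 carry pooled RNA, and whether a pool holds RNA of the single mice is not stated, so a p-value here reflects only how much these arrays vary.

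The let-7 miRNAs are made from long primary transcripts that Drosha and Dgcr8 cut to a hairpin, which Dicer1 then cuts to the mature RNA loaded onto an Argonaute protein. All mature let-7 miRNAs pair with their target mRNAs through the same seed and repress genes of growth and of fetal programs, such as Hmga2 and the Igf2bp genes. The RNA-binding proteins Lin28a and Lin28b bind let-7 hairpins and block their maturation, and in mouse fetal hematopoiesis Lin28b holds let-7 low until the adult program takes over. The study also worked with mature let-7g-5p, in medium of macrophages from recipients and as a mimic and an antagomir in adipocytes. The arrays of amplified cDNA used here do not measure that short RNA. The study further reports that many immature miRNAs were lower in marrow cells of VD(−) HSC recipients. The question here was whether the precursors differed in BM between recipients of VD(−) and VD(+) HSCs.

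The mature sequences are shown because they define the family and show how alike the members are. They are from RefSeq's miRNA table (GRCm38.p6), written 5′ to 3′ with the seed, bases 2 to 8, in capitals. The 9 members carry 7 different 5p sequences, each of 22 bases.
let-7a-5p: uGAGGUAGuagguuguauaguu
let-7c-5p: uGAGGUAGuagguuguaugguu
let-7d-5p: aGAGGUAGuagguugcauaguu
let-7e-5p: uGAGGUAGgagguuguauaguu
let-7f-5p: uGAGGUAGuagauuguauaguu
let-7g-5p: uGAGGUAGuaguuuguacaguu
let-7i-5p: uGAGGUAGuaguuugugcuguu
All 9 members share the seed GAGGUAG. Counted from 1 at the 5′ end, and with the base of let-7a-5p first, let-7c-5p differs by A19G, let-7e-5p by U9G and let-7f-5p by G12A. The let-7d-5p sequence differs by U1A and U16C, and let-7g-5p by G12U and U18C. The most distant member, let-7i-5p, differs by G12U, A17G, U18C and A19U and is 81.8% identical to let-7a-5p. Over whole hairpins, which the probes can also cover, identity in 36 pairwise global alignments ran from 51.4% (Mirlet7i with Mirlet7e) to 80.0% (Mirlet7a-1 with Mirlet7f-2), with a median of 64.4%. Mirlet7a-1 and Mirlet7a-2 give the same mature let-7a-5p, and Mirlet7f-1 and Mirlet7f-2 the same let-7f-5p, so members share sequence and are not replicates of each other. Which bases the probes cover is not given in the sources used here, and signal from a close relative on a member's probes was not tested.

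The stretch between the mature arms is where Lin28 proteins bind, through a GGAG motif shown here in capitals. It is given for the members with the largest differences below and, for contrast, for Mirlet7b, whose probe set is shared with Lncppara.
Mirlet7d: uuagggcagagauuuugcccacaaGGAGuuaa
Mirlet7g: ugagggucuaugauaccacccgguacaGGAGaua
Mirlet7b: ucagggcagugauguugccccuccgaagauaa
GGAG was found between the arms in 9 of 9 members, and not in that stretch of Mirlet7b or Mirlet7c-2. On the RNA strand it occurred between the arms in 52 of 644 mouse hairpins with both arms listed (8.07%). The letters alone are a description and not a measured binding site.

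In the genome the members lie at 7 places (GRCm38.p6, RefSeq; the build behind the array is not stated). Mirlet7a-1 (chr13:48538179-48538272), Mirlet7f-1 (chr13:48537829-48537917) and Mirlet7d (chr13:48536012-48536114) form a cluster on the minus strand. Mirlet7g (chr9:106178840-106178927, plus strand) lies within Wdr82, and Mirlet7f-2 (chrX:151912346-151912428, plus strand) within Huwe1, next to Mir98, which has the same seed. Mirlet7e (chr17:17830352-17830444, plus strand) lies within Spaca6 between Mir99b and Mir125a. Mirlet7a-2 (chr9:41536716-41536811, plus strand) lies within the long noncoding RNA gene Mir100hg, near Mir100 and Mir125b-1. Mirlet7c-1 (chr16:77599657-77599750, plus strand) has Mir99a and Mir125b-2 as neighbours, and Mirlet7i (chr10:122985640-122985724, minus strand) stands alone.

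The signal of all 9 members was low. Their mean log2 signals over the 10 arrays ran from 2.16 (Mirlet7f-2) to 3.96 (Mirlet7i), and the median over all probe sets was 4.74. Because probe sets differ in how well they bind, these signals do not rank the members by abundance. Olfactory receptor genes, which marrow is not known to use, give a level to set beside them. The 1035 olfactory receptor probe sets had a median of 2.47, a 5th percentile of 1.87 and a 95th percentile of 3.97, and all 9 members lay between these percentiles. Mirlet7i was above 94.8% of them, Mirlet7g above 94.5%, Mirlet7e above 91.7%, Mirlet7d and Mirlet7a-1 each above 89.8%, and Mirlet7f-1 above 80.8%. Mirlet7c-1 was above 53.2%, Mirlet7a-2 above 52.3% and Mirlet7f-2 above 26.1%. On the 7 arrays with no Y-linked signal, Kdm5d, Eif2s3y and Uty lay between 1.81 and 2.90. The means of Mirlet7f-1, Mirlet7a-1, Mirlet7d, Mirlet7e, Mirlet7g and Mirlet7i, 3.11 to 3.96, lay above that range but within that of the olfactory receptors. Beside the olfactory receptors a level above background is not shown for any member, and least for Mirlet7c-1, Mirlet7a-2 and Mirlet7f-2.

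**Figure D1:**
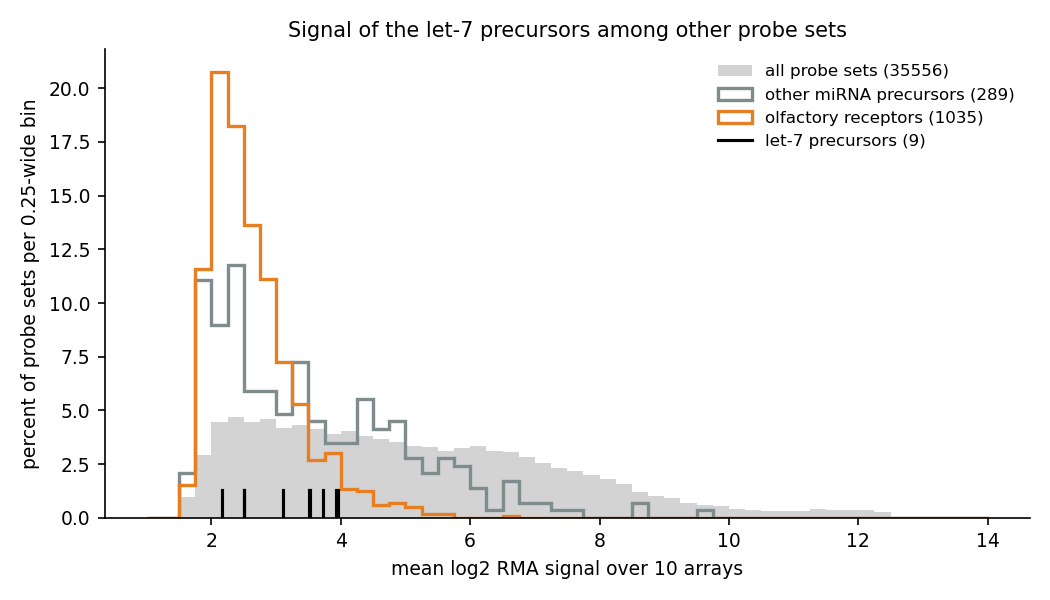
Mean log2 RMA signal over the 10 arrays (horizontal axis) against the percent of probe sets in each bin, for all probe sets (grey area), 289 other miRNA precursors (grey line) and 1035 olfactory receptors (orange line). The 9 short black lines are the let-7 precursors, between 2.16 and 3.96, all under the median of 4.74 over all probe sets.

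Some features of the arrays moved with the groups. The mean log2 signal of Kdm5d, Eif2s3y and Uty was between 5.31 and 6.80 on 3 VD(−) arrays (replicate 1 and both pools) and between 2.25 and 2.56 on the other 7, among them all VD(+) arrays. Y-linked signal was thus confined to VD(−) arrays, although the methods describe mixed male and female donor pools, and the reason was not tested. Xist, the RNA of X inactivation, lay between 7.76 and 10.33 in VD(−) and between 10.16 and 10.3 in VD(+). Markers of marrow cells were present in every array, with neutrophil genes brightest, at means of 11.72 to 12.08 in VD(−) and 11.81 to 12.01 in VD(+). The 7 measured markers of mature B cells were all below 0, at means of 7.32 to 7.6 in VD(−) and 7.61 to 8.03 in VD(+), with 3 lower at an unadjusted (nominal) p under 0.05 from limma, as 3.23% of all probe sets were. Of these Fcer2a (CD23) passed an adjusted p under 0.05, as 0.118% of all probe sets did in either direction. The 7 measured markers of monocytes and macrophages were all above 0, at means of 8.47 to 8.64 in VD(−) and 7.88 to 8.21 in VD(+), and 3 were higher at a nominal p, as 3.85% of all probe sets were. Of these Cd14, a receptor for lipopolysaccharide, passed the adjusted p, beside the same 0.118%. Of 7 measured markers of marrow stroma 6 were above 0, at means of 6.77 to 7.43 in VD(−) and 6.67 to 7.06 in VD(+). At a nominal p 2 were higher, the niche genes Cxcl12 (0.24, SE 0.10) and Lepr (0.33, SE 0.13), beside the same 3.85% of all probe sets. Of 5 erythroid markers 4 were above 0 and 1, Slc4a1, was below (−0.135, SE 0.07). Only the transcription factor Klf1 was higher at a nominal p (0.25, SE 0.10), beside 3.85% of all probe sets. All 6 markers of megakaryocytes were below 0 with 0 at a nominal p. Of 8 markers of T and NK cells 6 were above 0, and of 7 of stem and progenitor cells 4 were below, with 0 at a nominal p in either list. Fewer cells of a type and less RNA per cell cannot be told apart in these bulk samples, and the part of these shifts in the let-7 values that follow was not tested.

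Mirlet7g, the precursor of let-7g, was lower in VD(−) HSC recipient BM at a nominal p. Its log2 signal was 3.83, 3.82 and 3.67 in the VD(−) singles and 3.45 and 3.81 in the VD(−) pools, against 4.41, 3.78 and 4.15 in the VD(+) singles and 4.09 and 4.34 in the VD(+) pools. In 4 of 5 VD(+) arrays it was above all VD(−) arrays, and VD(+) replicate 2 lay among them, so the groups overlap. The means were 3.72 ± 0.16 in VD(−) against 4.15 ± 0.25 in VD(+) (SD, n = 5 arrays each), so that the log2 fold change, VD(−) less VD(+), was −0.44 (SE 0.13, 95% interval −0.72 to −0.16, a ratio of 0.738). The adjusted p was 0.473 from limma over all probe sets (unadjusted p = 0.00514), and the exact permutation test of 5 arrays against 5, two-sided, gave p = 0.0317, where the smallest p it allows is 0.00794. The difference was −0.34 in the singles alone, where it no longer passed a nominal p (unadjusted p = 0.0859 and adjusted p = 0.985 from limma), and −0.58 in the pools alone (unadjusted p = 0.0303 and adjusted p = 0.923). Without the 3 arrays with Y-linked signal, and so with VD(−) replicates 2 and 3 alone on that side, it was −0.41 (adjusted p = 0.823 from limma).

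Mirlet7d, the third precursor of the chromosome 13 cluster, was also lower at a nominal p. Its log2 signal was 3.36, 3.52 and 3.09 in the VD(−) singles and 3.39 and 3.17 in the VD(−) pools, against 3.61, 4.37 and 3.39 in the VD(+) singles and 3.66 and 3.66 in the VD(+) pools. Here too 4 of 5 VD(+) arrays lay above all VD(−) arrays, with VD(+) replicate 3 among the VD(−) arrays and VD(+) replicate 2 far above the rest. The means were 3.30 ± 0.18 in VD(−) against 3.74 ± 0.37 in VD(+) (SD, n = 5 each), so that the log2 fold change was −0.43 (SE 0.17, 95% interval −0.80 to −0.065, a ratio of 0.741). The adjusted p was 0.635 from limma (unadjusted p = 0.0254), and the exact permutation test gave p = 0.0238. Without VD(+) replicate 2 the log2 fold change was −0.28, and without VD(−) replicate 3 or VD(−) pool 2 the unadjusted p from limma, with adjusted p-values of 0.659 and 0.808, no longer passed 0.05. It also did not pass without the 3 arrays with Y-linked signal, where the log2 fold change was −0.44 (adjusted p = 0.892 from limma). The nominal call was lost as well in the singles alone (−0.47, adjusted p = 0.985), with a covariate of Y-linked signal less Xist (−0.47, adjusted p = 0.714) and without VD(+) replicates 1 and 2 (−0.26, adjusted p = 0.843).

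Of the other 2 precursors of that cluster, Mirlet7a-1 had 3.33, 3.60 and 3.42 in the VD(−) singles and 3.34 and 3.57 in the VD(−) pools, against 3.59, 3.58 and 3.66 in the VD(+) singles and 3.39 and 3.64 in the VD(+) pools. The groups overlapped, and the log2 fold change was −0.12 (SE 0.08, 95% interval −0.30 to 0.06, adjusted p = 0.805 from limma). Mirlet7f-1 had 3.09, 3.20 and 2.89 in the VD(−) singles and 3.42 and 3.11 in the VD(−) pools, against 3.10, 2.87 and 3.33 in the VD(+) singles and 2.85 and 3.20 in the VD(+) pools. The groups lay over each other, with a log2 difference of 0.07 (SE 0.12, 95% interval −0.19 to 0.34, adjusted p = 0.931).

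**Figure D2:**
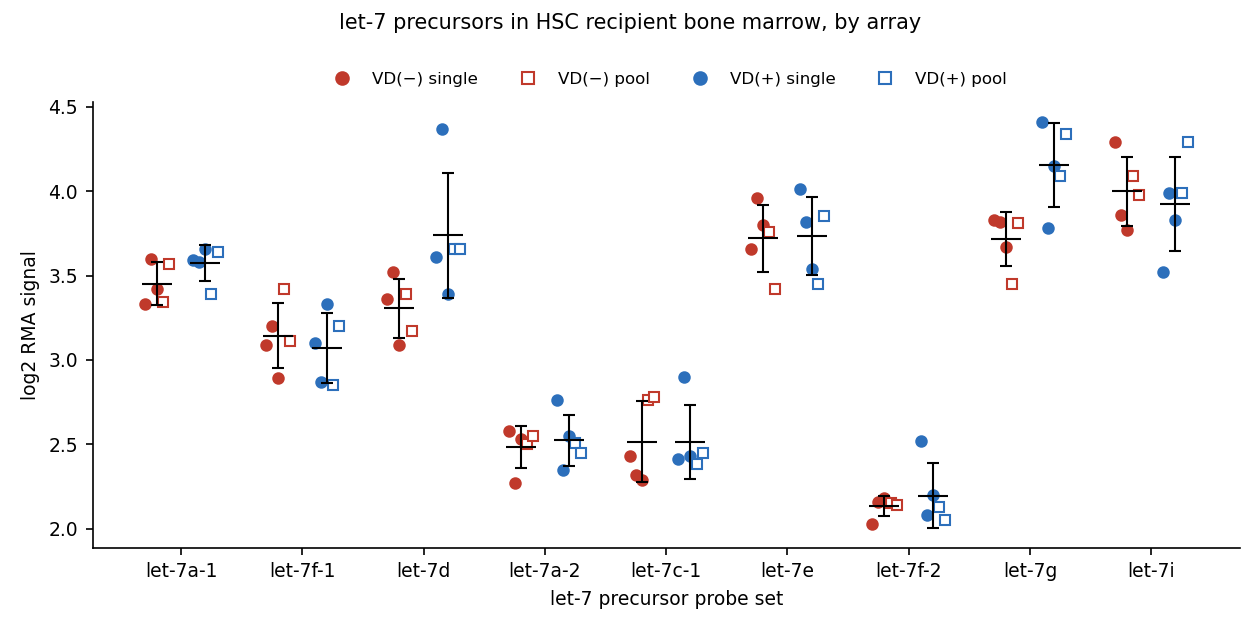
Log2 RMA signal (vertical axis) of the 9 let-7 precursors (horizontal axis) on each array, VD(−) in red and VD(+) in blue, with filled circles for single samples and open squares for pools. Black bars are the mean ± SD of 5 arrays, and the groups overlap for every member, with 4 of 5 VD(+) arrays above all VD(−) arrays for let-7d and let-7g.

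The 5 members at other places had differences near 0. Mirlet7i averaged 4.0 ± 0.20 in VD(−) against 3.93 ± 0.28 in VD(+) (SD, n = 5 each), and had a log2 difference of 0.07 (SE 0.14, 95% interval −0.25 to 0.38, adjusted p = 0.948 from limma). Mirlet7e, at 3.72 ± 0.20 in VD(−) and 3.73 ± 0.23 in VD(+), had −0.01 (SE 0.13, 95% interval −0.30 to 0.27). Mirlet7i is a lone gene and Mirlet7e belongs to the cluster with Mir125a. Mirlet7c-1 had 2.51 ± 0.24 in VD(−) and 2.51 ± 0.22 in VD(+), with a log2 difference of 0.00 (SE 0.13, 95% interval −0.30 to 0.30). Mirlet7a-2, at 2.49 ± 0.12 in VD(−) and 2.52 ± 0.15 in VD(+), had −0.04 (SE 0.09, 95% interval −0.24 to 0.17). Mirlet7f-2, which is X-linked, was at 2.13 ± 0.06 in VD(−) and 2.20 ± 0.19 in VD(+), with −0.06 (SE 0.09, 95% interval −0.27 to 0.14). VD(+) replicate 1 held the highest value of Mirlet7a-2, Mirlet7e, Mirlet7f-2 and Mirlet7g.

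Counted together, 0 of 9 members passed an adjusted p under 0.05 from limma, a threshold that 0.118% of all probe sets passed, and 0 of 9 did so by the methods' t-test after the Benjamini-Hochberg adjustment, which 0.0253% of all probe sets passed. At a nominal p under 0.05, 2 of 9 members were lower, where 3.23% of all probe sets were lower, and 0 of 9 were higher, where 3.85% were. Adding the ratio limits that the methods set gave the same 2 lower and 0 higher, beside 3.23% and 2.64% of all probe sets. At the same limits the methods' t-test also gave 2 lower and 0 higher, beside 3.24% and 1.94%. In 0 of 9 members did the arrays of 1 group all lie below or above the other, which 0.641% of all probe sets did downward and 0.911% upward. Of the 9 log2 fold changes 6 were below 0, with a median of −0.04. Over all probe sets 50.9% were below 0, but among the 11104 probe sets at the members' signal levels 57.6% were, with a median of −0.02, and among 289 other miRNA precursors 59.9% were, with a median of −0.03. Among those 289, 15 were lower at a nominal p (5.19%) and 7 higher (2.42%). Of the 1035 olfactory receptor probe sets 62.3% were below 0, with a median of −0.03. At a nominal p 45 of them were lower (4.35%) and 7 higher (0.676%). The mean over the 9 members was 3.16 ± 0.05 in VD(−) against 3.27 ± 0.07 in VD(+) (SD, n = 5 each), and the mean over the other miRNA precursors was 3.52 ± 0.02 in VD(−) and 3.56 ± 0.04 in VD(+). Mirlet7g (−0.44) and Mirlet7d (−0.43) had the log2 fold changes furthest from 0, and those of the remaining members ran from −0.12 to 0.07. The lower let-7 mean thus rests mostly on these 2 members and does not show a shift of the whole family. Whether the let-7 precursors differ from other miRNA precursors was not tested.

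**Figure D3:**
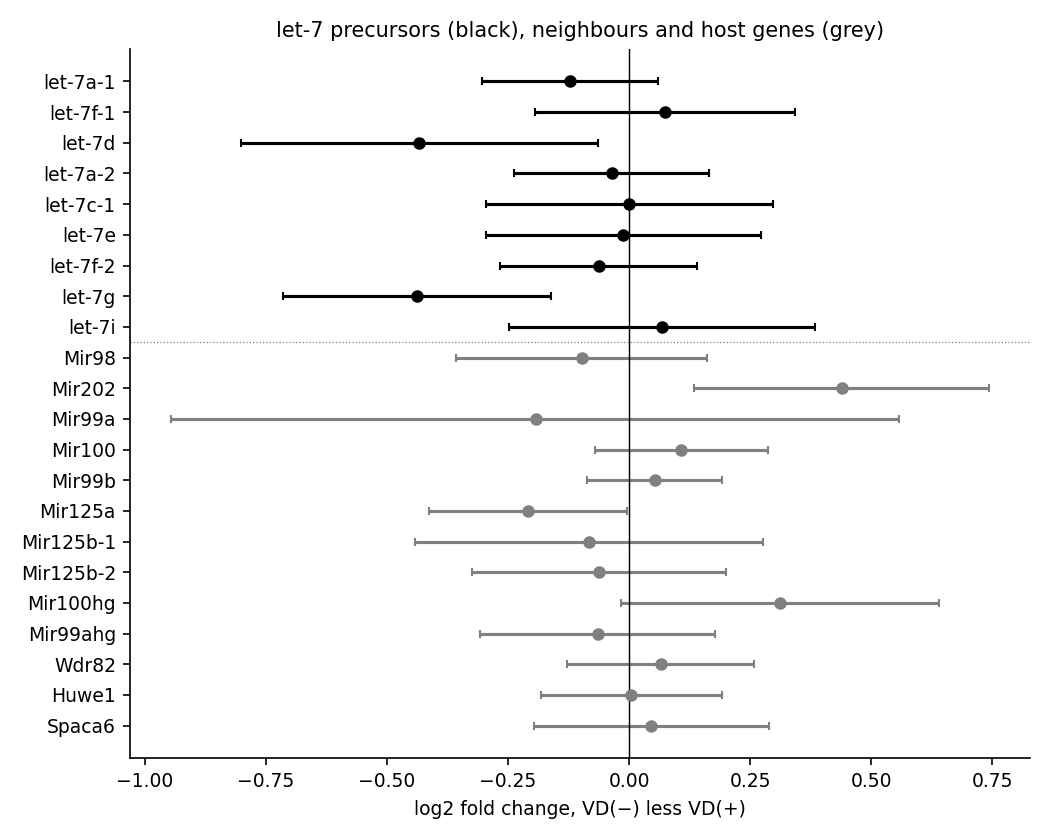
Log2 fold change, VD(−) less VD(+) HSC recipient BM (horizontal axis), with 95% intervals from limma, for the 9 let-7 precursors (black) and for related or neighbouring miRNAs and host genes (grey). The intervals of let-7d (−0.80 to −0.065) and let-7g (−0.72 to −0.16) and of Mir125a (−0.412 to −0.004) lie below 0, and that of Mir202 (0.135 to 0.743) lies above it. No adjusted p passed 0.05.

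Members were then set beside their neighbours and hosts within each array, in pairs chosen after the data were seen. Such a difference compares how far both features moved. Of 12 such pairs, Mirlet7g and Wdr82 had the smallest p. Wdr82, which encodes a subunit of histone H3 lysine methyltransferase complexes and spans Mirlet7g, was at 7.42 in VD(−) and 7.35 in VD(+), a log2 difference of 0.07 (SE 0.09, adjusted p = 0.908 from limma). Mirlet7g less Wdr82 was −3.45, −3.61 and −3.92 in the VD(−) singles and −3.80 and −3.73 in the VD(−) pools, against −3.0, −3.42 and −3.15 in the VD(+) singles and −3.34 and −3.09 in the VD(+) pools. The nearest arrays of the groups were VD(−) replicate 1 at −3.45 and VD(+) replicate 2 at −3.42, and the groups differed by −0.50 (SE 0.11). The level of Mirlet7g, as given above, is not shown to be over background, while Wdr82 is bright. The exact permutation p was 0.00794, the smallest it can give, and 0.0952 when adjusted over the 12 pairs. That adjustment does not cover the choice of the pairs after the data were seen. The pair also reuses the Mirlet7g values tested above, so it is not separate support. Mirlet7d differed from its cluster neighbour Mirlet7f-1 by −0.51 (SE 0.25, exact permutation p = 0.0476, adjusted over the 12 pairs 0.286) and from Mirlet7a-1 by −0.31 (SE 0.20, exact permutation p = 0.135). In the other 9 pairs the exact permutation p was 0.0714 or more, and 0 of the 12 pairs passed 0.05 once adjusted.

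Of the miRNAs that share clusters with let-7, 1 of 7 was lower at a nominal p and 0 were higher. Of all probe sets 3.23% were lower and 3.85% higher. Mir125a, beside Mirlet7e, was at 4.59 in VD(−) and 4.80 in VD(+), with a log2 difference of −0.21 (SE 0.09, adjusted p = 0.694 from limma). Mir99b, on the other side of Mirlet7e, had 0.05 (SE 0.06), Mir99a −0.19 (SE 0.34) and Mir100 0.11 (SE 0.08). Mir125b-1 had −0.08 (SE 0.16) and Mir125b-2 −0.06 (SE 0.12). Mir98, whose mature RNA has the let-7 seed, was at 2.29 in VD(−) and 2.39 in VD(+), with −0.10 (SE 0.12). Mir202, often placed with let-7 although the 3p seed in RefSeq is GAGGUAU, was higher at a nominal p, at 3.49 in VD(−) and 3.05 in VD(+), with 0.44 (SE 0.14, unadjusted p = 0.00891 and adjusted p = 0.539 from limma). The groups overlapped, between 3.17 and 3.66 in VD(−) and between 2.71 and 3.39 in VD(+). Of 5 measured host genes 0 passed a nominal p. Mir100hg had 0.31 (SE 0.15), Huwe1, a ubiquitin ligase, 0.005 (SE 0.08), and Spaca6, a sperm protein needed for fertilization, 0.05 (SE 0.11). The brightest of 4 probe sets of Mir99ahg had −0.07 (SE 0.11). Mir99ahg was listed as a let-7 host, although no gene overlapped Mirlet7c-1 in the RefSeq genes used.

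Of 27 measured genes that make, block or use let-7, in 3 lists, 1 was lower at a nominal p and 0 were higher. Of all probe sets 3.23% were lower and 3.85% higher at that threshold. The 27 genes had a median log2 fold change of −0.04, and 0 passed the adjusted p from limma, beside 0.118% of all probe sets. Lin28a was at 5.49 in VD(−) and 5.45 in VD(+), with 0.04 (SE 0.13, adjusted p = 0.970 from limma). Lin28b was at 2.81 in VD(−) and 2.84 in VD(+), within the range of olfactory receptors, with −0.035 (SE 0.12, adjusted p = 0.970). Tut4, which with Tut7 adds uridines to let-7 hairpins held by Lin28 and, in human cells, a single uridine that helps Dicer cut most of them, was at 8.17 in VD(−) and 8.32 in VD(+), with −0.15 (SE 0.07, adjusted p = 0.695). Tut7 had −0.07 (SE 0.07) and Dis3l2, the exonuclease that degrades uridylated let-7 hairpins, −0.01 (SE 0.08). Trim71, itself a let-7 target, had −0.14 (SE 0.13) and Tut1, which uridylates U6 RNA, −0.07 (SE 0.12). Among 11 genes of miRNA processing, Drosha had −0.06 (SE 0.09), its partner Dgcr8 −0.02 (SE 0.12), the export receptor Xpo5 0.10 (SE 0.08), Dicer1 −0.08 (SE 0.08) and a Dicer partner, Prkra, 0.31 (SE 0.15, adjusted p = 0.732). Khsrp, which binds let-7 hairpins and helps their processing, had −0.12 (SE 0.07) and Ran, which works with Xpo5, 0.12 (SE 0.09). Of 8 genes of the silencing complex 7 were below 0, with a median of −0.07 and 0 at a nominal p, and Ago1 had −0.14 (SE 0.08) and Ago2 −0.04 (SE 0.10). Ago3 had 0.08 (SE 0.09), and the scaffold proteins of the complex Tnrc6b −0.09 (SE 0.11) and Tnrc6c −0.09 (SE 0.08).

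Genes known as let-7 targets, mostly from human and mouse cell studies, were read the same way. Of 33 measured targets 16 were below 0 and 17 above, with a median log2 fold change of 0.01. At a nominal p from limma 1 was lower and 0 higher, beside 3.23% and 3.85% of all probe sets. That 1 was E2f2, a transcription factor of S-phase entry and of erythroid maturation, at 7.76 in VD(−) and 7.96 in VD(+), with −0.21 (SE 0.09, adjusted p = 0.681 from limma). Among 9 oncofetal targets Hmga2, a chromatin protein of fetal stem cells, was at 4.77 in VD(−) and 4.53 in VD(+), with 0.24 (SE 0.13, adjusted p = 0.747). The imprinted zinc finger gene Plagl1 had 0.15 (SE 0.10), the transcription factor E2f5 0.17 (SE 0.13) and the RNA-binding protein Igf2bp3 −0.12 (SE 0.12). Among 10 targets of growth and the cell cycle, the growth regulators Mycn and Myc had −0.25 (SE 0.13) and 0.02 (SE 0.16), and the G1 cyclins Ccnd1 0.20 (SE 0.11) and Ccnd2 0.18 (SE 0.10). Among 14 targets of insulin signaling and inflammation, the insulin receptor gene Insr was at 8.14 in VD(−) and 8.31 in VD(+), with −0.16 (SE 0.08, adjusted p = 0.725 from limma). Igf1r, the receptor for insulin-like growth factor, had −0.16 (SE 0.11) and the adaptor Irs2 −0.10 (SE 0.13). The cytokine Il6 had 0.03 (SE 0.13), the PI3-kinase inhibitor Pik3ip1 −0.26 (SE 0.18) and Tlr4, the receptor for lipopolysaccharide, 0.32 (SE 0.17, adjusted p = 0.747). The mean of Il6 over the 10 arrays, 2.88, lay within the range of olfactory receptors. Igf2bp2 was not analysed here.

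**Figure D4:**
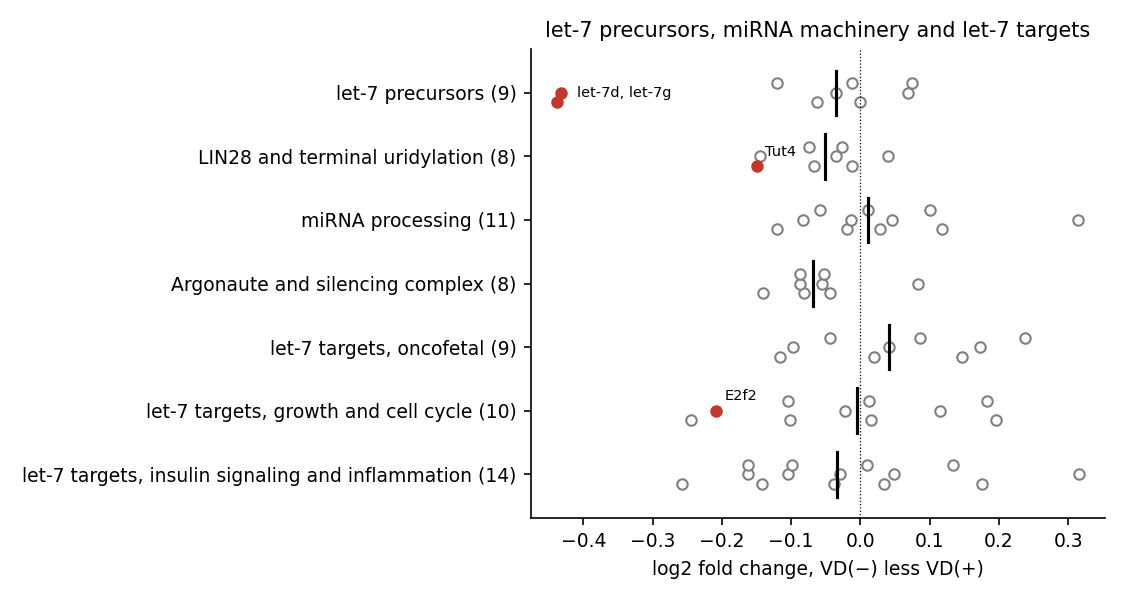
Log2 fold change, VD(−) less VD(+) HSC recipient BM (horizontal axis), of the let-7 precursors and of 6 lists of genes, the count of measured genes following each name. Points are genes, red where the nominal p from limma was under 0.05, and vertical bars are medians. Tut4 (−0.15) and E2f2 (−0.21) are the only red points outside the let-7 precursors.

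Among 21780 other probe sets with 1 gene, those whose values over the 10 arrays were most like the mean of the 9 members were Krt16 (Pearson r = 0.949), Fam47e (0.924), B4galnt3 (0.918), Septin6 (0.911) and Deup1 (0.903). They were the highest of 21780 values over 10 arrays that share their normalization, so the figures are a description only. Their log2 fold changes ran from −0.20 to −0.07, and none passed an adjusted p from limma, with 0.542 for B4galnt3 the smallest.

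Mirlet7g kept a negative log2 fold change under all 22 alternatives, from −0.58 to −0.34, and passed a nominal p under 21 of them. Mirlet7d did so from −0.52 to −0.26 and passed under 16. The adjusted p from limma or the methods' t-test under those alternatives was never below 0.234 for Mirlet7g and 0.499 for Mirlet7d.

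**Figure D5:**
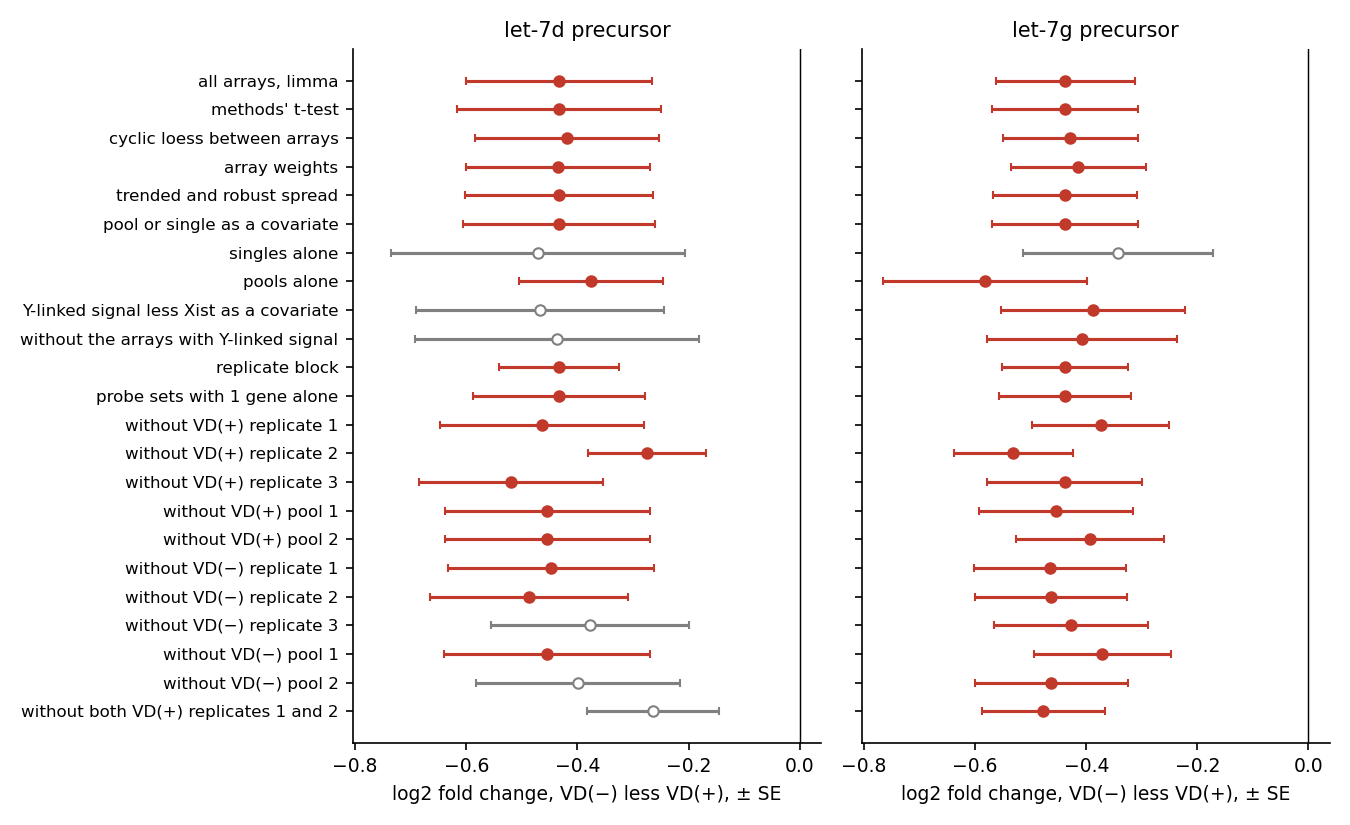
Log2 fold change ± SE, VD(−) less VD(+) HSC recipient BM (horizontal axis), of the let-7d (left) and let-7g (right) precursors with all arrays and under 22 alternatives (vertical axis). Red points had a nominal p under 0.05 and open grey points did not, and every point lies below 0.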

How the data were processed

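The 10 arrays, 5 VD(−) and 5 VD(+), were read from one deposited table of log2 signals. The authors used Partek Genomics Suite 6.6, and the submitters' notes name RMA, a method of background correction, quantile normalization and probe set summary. Filters and genome build were not found in these sources, and the methods name an miRNA array although the probe sets belong to a gene array. Array medians lay between 4.74 and 4.80, and the number of arrays limits the precision. Gene symbols came from the platform annotation (21789 probe sets with 1 gene, 1621 with several, 12146 with none). Groups were compared, two-sided, by limma 3.58.1 (R 4.3.3; lmFit, eBayes) on all 35556 probe sets, with Benjamini-Hochberg adjustment over all of them, and single values with an exact permutation test. A gene with several probe sets is given by the one with the highest mean. The procedure was tested on simulated data.

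All members are described. Of each list all genes are counted and up to 4 with the smallest p are named, plus Mir98, Mir202, Lin28a, Lin28b, Hmga2, Igf2bp2, Insr, Igf1r, Irs2, Il6, Tlr4 and the host genes, and further genes were named for their roles after their values were seen. The members and lists were chosen with earlier results of these data known. The olfactory receptors, the 12 pairs and the set of probe sets at the members' levels were chosen after seeing the data. Alternatives were the methods' t-test, brighter probe sets, cyclic loess, array weights, a trended and robust spread, pool or single as a covariate, singles or pools alone, a covariate of Y-linked signal less Xist, only arrays without that signal, a replicate block, probe sets with 1 gene and leaving out each array. The arrays without VD(+) replicates 1 and 2 were added after seeing the data. The deposited table has 0 unused columns.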

Additional observations from a re-analysis of the deposited data

Results flagged for a closer look

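Single arrays stood apart within a group of 5, with a gap to the nearest array above Dixon's critical share of the group's range, in 4 members and in their mean. Mirlet7d was at 4.37 on VD(+) replicate 2 (0.730 of the range), and Mirlet7c-1 at 2.90 on the same array (0.851). Mirlet7a-2 was at 2.27 on VD(−) replicate 2 (0.756) and Mirlet7f-2 at 2.03 on VD(−) replicate 1 (0.759). The mean of the 9 members was 3.07 on VD(−) replicate 3 (0.722), the lowest of all arrays. The criterion was applied to each of the 9 members and to their mean, in both groups, and about 1 in 20 groups meets it by chance. The mean is made of the members, so its flag is not separate from their values.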

How the results depend on the processing

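Of the results recomputed under 22 alternatives, 0 members passed the adjusted p under any of them, and 279 values kept their direction and side of the threshold or stayed within the spread. Another 34 values turned sign, and 17 medians or counts moved. With brighter probe sets alone no member was left, so that alternative gave no value. The median of the 9 log2 fold changes was −0.14 in the singles alone, −0.11 with the Y-linked covariate and −0.11 without the arrays with Y-linked signal, against −0.04 with all arrays. It was nearer 0 with cyclic loess (−0.009), with array weights (−0.005) and without VD(+) replicates 1 and 2 (−0.015), and leaving out each array in turn gave −0.079 to −0.026. The count of members lower at a nominal p, and at the thresholds of the methods, was 0 in the singles alone, and 1 with the Y-linked covariate, 1 without the arrays with Y-linked signal and 1 without VD(+) replicates 1 and 2. Leaving out each array in turn gave 1 to 2 lower, with 1 without VD(−) replicate 3 or VD(−) pool 2. In the pools alone 1 member was higher, Mirlet7c-1 at 0.35. Signs turned only in members near 0. Mirlet7e had 0.001 with cyclic loess. In the singles Mirlet7f-1 had −0.039, Mirlet7c-1 −0.233 and Mirlet7e 0.016, and in the pools Mirlet7i had −0.11, Mirlet7a-2 0.049 and Mirlet7f-2 0.057. With the Y-linked covariate Mirlet7i had −0.11, Mirlet7f-1 −0.029, Mirlet7c-1 −0.14 and Mirlet7e 0.077. Without the arrays with Y-linked signal Mirlet7i had −0.11, Mirlet7f-1 −0.023, Mirlet7c-1 −0.21 and Mirlet7e 0.15. Without VD(+) replicates 1 and 2 Mirlet7i had −0.042, Mirlet7e 0.108 and Mirlet7f-2 0.005. Leaving out 1 array gave −0.031 to 0.161 for Mirlet7i, −0.065 to 0.096 for Mirlet7c-1, −0.084 to 0.063 for Mirlet7e, −0.079 to 0.023 for Mirlet7a-2 and −0.099 to 0.018 for Mirlet7f-2. The causes were not tested.

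With the replicate number as a block, Mirlet7g had −0.44 (SE 0.11, unadjusted p = 0.00697 and adjusted p = 0.546 from limma). Mirlet7d had −0.43 (SE 0.11 against 0.17 without the block, unadjusted p = 0.0058 and adjusted p = 0.522 from limma). The replicate block left the count at 2 lower. Deviations of arrays with the same number correlated between −0.05 and 0.06, and 1 of 5 VD(−) arrays was most like the VD(+) array of its own number. A pairing by number is thus not seen here, but so few arrays cannot exclude one. Low signal, near that of olfactory receptors, limits all 9 members.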

Other observations

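The 2 let-7 precursors that share a probe set annotation with Lncppara gave no larger difference. The probe set of Mirlet7b and Lncppara was between 4.88 and 5.62 in VD(−) and between 5.2 and 5.39 in VD(+), with a log2 fold change of −0.09 (SE 0.12). That of Mirlet7c-2 and Lncppara was between 3.45 and 3.53 in VD(−) and between 3.47 and 3.60 in VD(+), with −0.03 (SE 0.06). Since both probe sets list 2 genes, neither value can be given to the precursor alone.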
